A study of Homo sapiens with 15 samples.

Results

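Transcript levels were compared directly between drug-resistant A375 cells and A375 cells that carry MYC T58A, a pair of derivatives of the same parental line. A375 is a human melanoma cell line with an activating mutation of the kinase BRAF. The first group (called Resistant) is a clonal population resistant to PLX4720, an inhibitor of mutant BRAF, in 3 libraries. It was set against parental cells labelled with MYC T58A (called MYC T58A), also in 3 libraries. Unmodified A375 cells (called Parental, 3 libraries) are given beside them for orientation, and the series holds 15 libraries in 5 groups in all. The other groups are labelled Resistant-shMYC1 and Resistant-shMYC2, with 3 libraries each. They are not compared here but enter the fit that estimates the spread. Members were all genes with a deposited value of 10 or more in at least 3 of the 6 Resistant and MYC T58A libraries, which left 15742 of the 18322 genes in the table and set 2580 aside. The labels put all cells in ordinary culture near confluence. They do not say whether PLX4720 was present at harvest, nor how MYC T58A was delivered or which promoter drives it. The resistant population is 1 clone, so the libraries carry no variation between independently selected resistant populations.

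MYC is a transcription factor that binds DNA together with MAX, mostly at the E-box CACGTG, and raises the output of genes for ribosome assembly, nucleotide synthesis and metabolism. Phosphorylation of its threonine 58 marks the protein for degradation, and the T58A form escapes this and is more stable. Melanoma cells with mutant BRAF depend on the MAPK cascade that leads from BRAF through MEK to ERK, and cells under BRAF inhibitors can lose pigment cell features and gain a mesenchymal, inflammatory state. The title of the series sets MYC at a point where different routes to drug resistance meet. The direct comparison asks how far a resistant population and a population labelled with MYC T58A differ in their transcripts.

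Values are normalized reads, that is, the reads of a gene divided by a size factor of the library. Log2 differences are Resistant minus MYC T58A on log2(value + 1), which makes differences of genes with few reads look smaller than they are. A gene described as higher by a number differs by that number on this log2 scale, and a lone number in parentheses is the log2 difference. Adjusted p-values come from limma over all 15742 genes. Reads in genes numbered 24222192 to 28036807 per Resistant library, 24415163 to 28227222 per MYC T58A library and 24812116 to 25202625 per Parental library. Correlations of log2 values across genes were 0.991 to 0.993 within the groups and 0.928 to 0.931 between Resistant and MYC T58A libraries, so no library stood apart from its group. Genes of the table with no read numbered 322 to 362 per Resistant library and 575 to 665 per MYC T58A library. Labels call the libraries biological triplicates without naming separate cultures, and p-values then describe the spread between libraries. That spread is pooled over all 15 libraries of the 5 groups. For a single gene, SE and p can therefore differ from what the 6 libraries of this pair alone would give.

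MYC itself was far lower in Resistant cells. It had 329.8, 274 and 304 in Resistant libraries, against 3612, 3425 and 3496 in MYC T58A libraries (log2 difference -3.54, SE 0.0635, adjusted p = 4.69e-18). The groups did not overlap, and Parental cells averaged 423, so the level in MYC T58A cells stood above both of the other groups. An exact two-sided permutation test of 3 against 3 gave p = 0.1, the smallest this design allows. Reads of the endogenous gene and of a construct cannot be told apart in these counts. Among its partners, MAX, the obligate dimer partner, was at 1831 ± 60.3 in Resistant cells and 3241 ± 214 in MYC T58A cells (log2 difference -0.82, SE 0.0711, adjusted p = 1.06e-08). MXI1, a MAX partner that represses MYC targets, was also lower, at 351 in Resistant cells, against 972 in MYC T58A cells (log2 difference -1.47). MXD1 and MGA, other MAX partners, were slightly higher in Resistant cells, by 0.23 and 0.38. Of 11 measured genes in the MYC network, 2 were called higher and 5 lower.

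Among lineage genes, SOX10 was far below its Parental level in both groups. SOX10, the neural crest factor that maintains pigment cells, had 9.61, 4.7 and 8.19 in Resistant libraries, against 11, 9.35 and 7.05 in MYC T58A libraries, while Parental cells averaged 5282. Both groups lacked most of the Parental level, and SOX10 fell below the minimum value for testing. In a fit with no filter its difference was -0.28 (SE 0.2, 95% interval -0.70 to 0.13, adjusted p = 0.22). MITF, the master regulator of pigment genes, was at 3748 ± 233 in Resistant cells and 3592 ± 194 in MYC T58A cells, with overlapping libraries (log2 difference 0.06, SE 0.079, adjusted p = 0.507, 95% interval -0.11 to 0.23) and a Parental mean of 1509. Products that mark a melanocyte were scarce in both groups. PMEL, a melanosome protein, averaged 17.4 in Resistant cells, against 2.97 in MYC T58A cells, and the glial and melanocyte marker S100B averaged 4.12 in Resistant cells, against 1.63 in MYC T58A cells. The pigment enzymes DCT and TYRP1 ran the other way, with DCT at 3.82 in Resistant cells, against 78.6 in MYC T58A cells (log2 difference -4.55) and TYRP1 at 5.27 in Resistant cells, against 60.3 in MYC T58A cells (-3.56). TYR and MLANA were not analysed here.

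**Figure D1:**
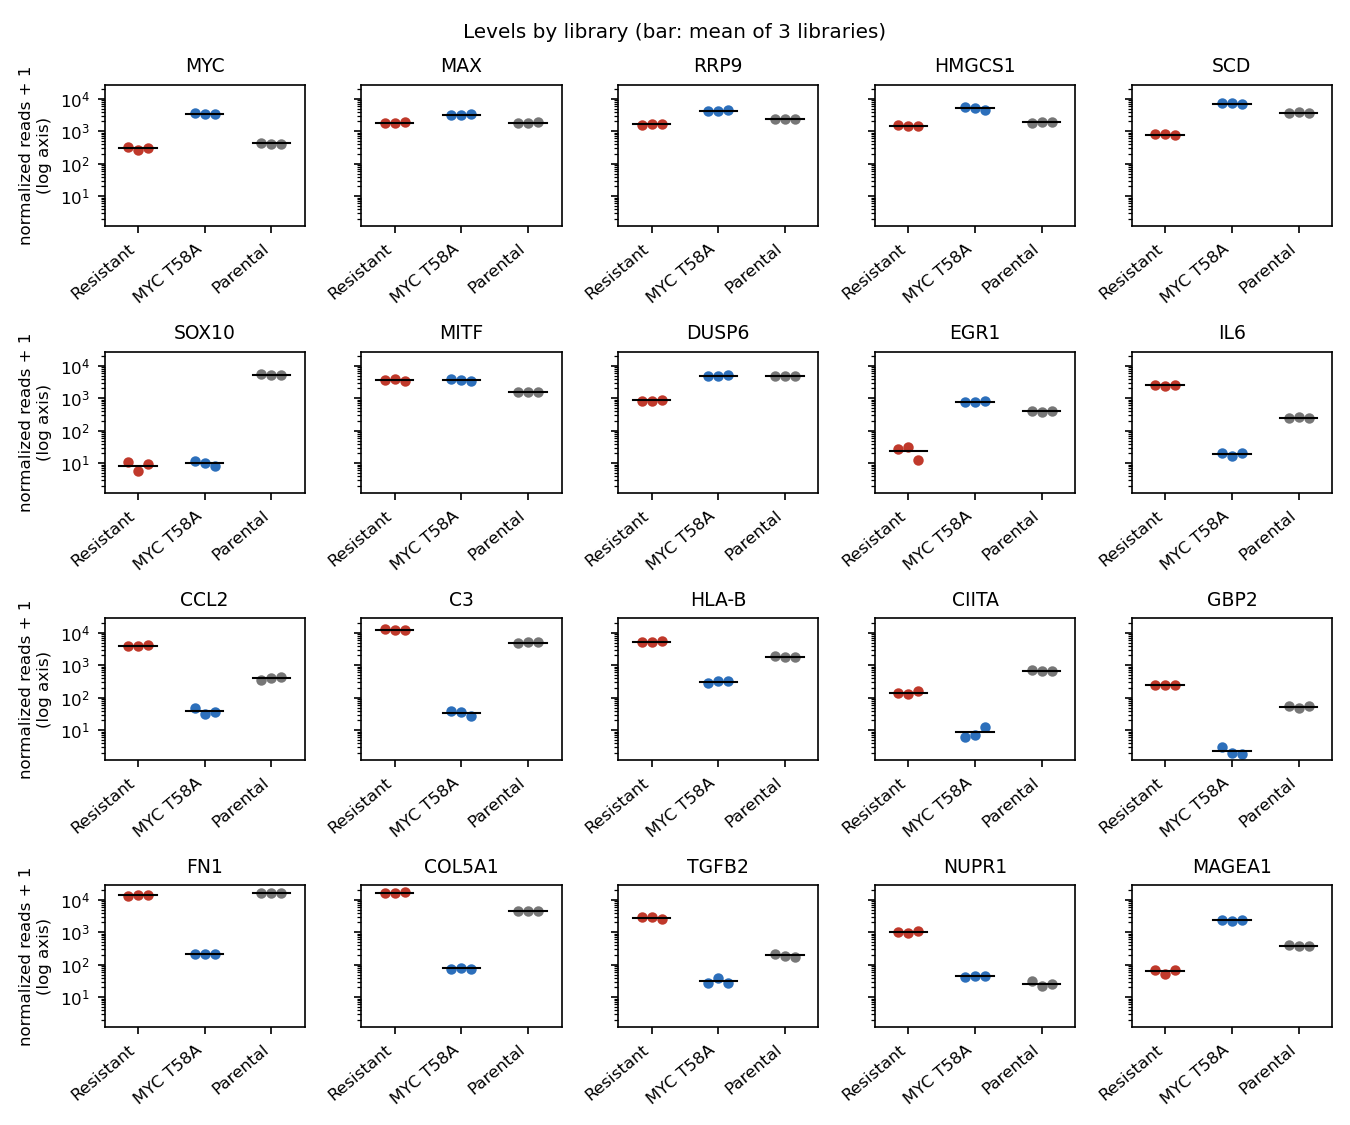
Normalized reads plus 1 on a log axis for 20 genes, with 1 point per library and a bar at the mean of 3 libraries, in Resistant (left), MYC T58A (middle) and Parental cells (right). MYC is high in MYC T58A cells alone, SOX10 is low in Resistant and MYC T58A cells alike, and IL6, C3, FN1 and COL5A1 are high in Resistant and low in MYC T58A cells.

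Most transcripts differed between the groups. At an adjusted p under 0.05, 11093 of 15742 genes were called, 70.5%, of which 5825 (37.0% of those tested) were higher and 5268 (33.5%) lower in Resistant cells. The groups' libraries did not overlap for 11910 genes, 75.7%. Differences of at least 1 on the log2 scale were called for 3628 genes (23.0%). Here the directions were uneven, with 2331 higher in Resistant cells (14.8%) and 1297 lower (8.24%). The balance of directions depended on the scaling. Quantile normalization left 1994 higher and 1901 lower by at least 1, 51.2% higher in place of 64.3%. Over calls of any size it turned the balance, with 5236 higher and 6261 lower. Differences of 3 or more were called for 618 genes higher and 151 lower, and of 5 or more for 162 higher and 34 lower. These shares are the background for each gene list given below: 37.0% of all tested genes were higher, 33.5% lower, and the median log2 difference was 0.02. The lists were drawn up with earlier results of these libraries known, and some share members.

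**Figure D2:**
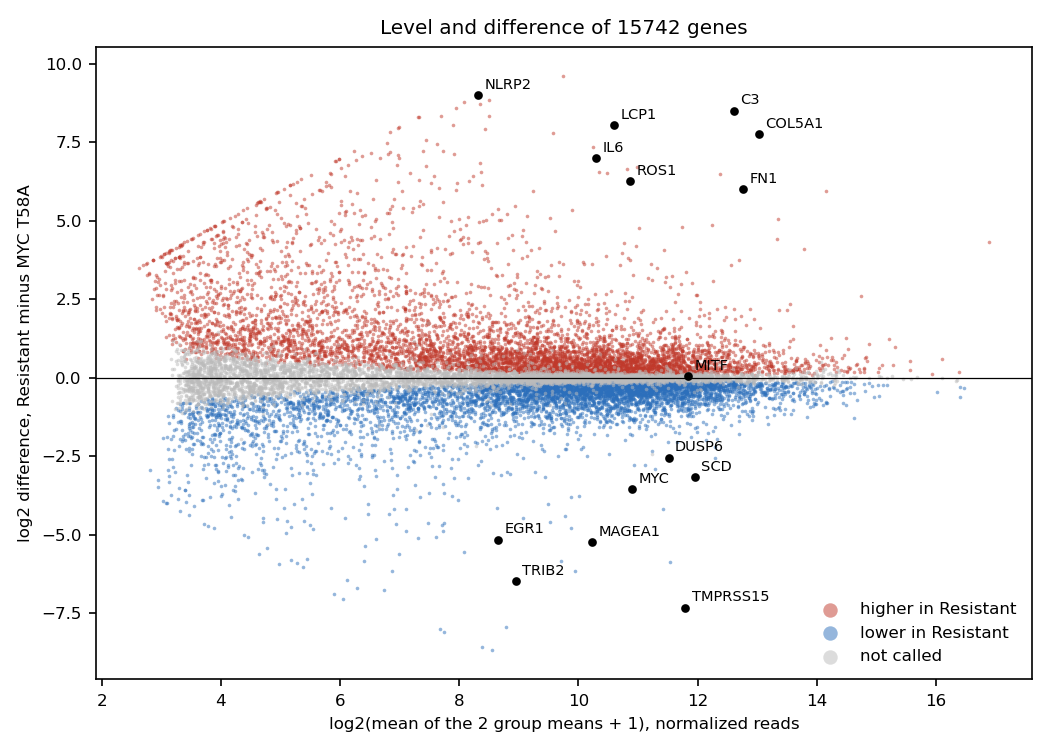
Log2 difference (Resistant minus MYC T58A, vertical) against the log2 mean level (horizontal) of 15742 genes, 1 point each, coloured by call. Points above 0 are higher in Resistant cells, and named genes include C3, COL5A1 and IL6 at the top and TMPRSS15, TRIB2 and MYC below 0.

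Genes for making ribosomes were lower in Resistant cells. Of 53 ribosome biogenesis genes measured, 44 were lower (83.0%), 3 higher (5.66%) and 6 not called, with a median log2 difference of -0.51. PNO1, an assembly factor of the small subunit, had 1495, 1513 and 1481 in Resistant libraries, against 4285, 4231 and 4084 in MYC T58A libraries (log2 difference -1.49, SE 0.045, adjusted p = 5.84e-15). The 51 tested genes around it on chromosome 2 had a median of -0.54. RRP9, part of the particle that processes pre-ribosomal RNA, had 1615, 1623 and 1729 in Resistant libraries, against 4335, 4172 and 4371 in MYC T58A libraries (log2 difference -1.38, SE 0.0414, adjusted p = 5.44e-15). Neither gene's libraries overlapped. BOP1, needed for the large subunit, was at 328 ± 85.6 in Resistant cells and 850.3 ± 131 in MYC T58A cells (log2 difference -1.40, SE 0.182, adjusted p = 1.22e-05). The opposite direction was small. HEATR1, a small subunit processome component, was higher by 0.31, within a stretch of chromosome 1 where the median of 51 neighbouring tested genes was 0.72, and UTP14A was higher by 0.30. Against Parental, whose libraries serve both comparisons, the list's median was -0.06 for Resistant and 0.43 for MYC T58A. In bulk RNA, fewer cells with a transcript and less of it per cell cannot be told apart.

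Both of these promoters are shown because they carry the E-box that MYC and MAX bind. The windows run from 250 bases before to 50 bases after the RefSeq start in GRCh38.p14, PNO1 at chr2:68157638-68157937 on the plus strand and RRP9 at chr3:51941855-51942154 on the minus strand. They read 5′ to 3′ along the gene, with capitals marking CACGTG.
PNO1: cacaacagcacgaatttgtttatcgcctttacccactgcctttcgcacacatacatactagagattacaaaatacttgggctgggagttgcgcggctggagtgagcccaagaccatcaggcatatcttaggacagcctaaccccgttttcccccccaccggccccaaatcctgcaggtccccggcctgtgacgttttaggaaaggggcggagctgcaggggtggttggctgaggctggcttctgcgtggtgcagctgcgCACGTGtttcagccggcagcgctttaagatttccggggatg
RRP9: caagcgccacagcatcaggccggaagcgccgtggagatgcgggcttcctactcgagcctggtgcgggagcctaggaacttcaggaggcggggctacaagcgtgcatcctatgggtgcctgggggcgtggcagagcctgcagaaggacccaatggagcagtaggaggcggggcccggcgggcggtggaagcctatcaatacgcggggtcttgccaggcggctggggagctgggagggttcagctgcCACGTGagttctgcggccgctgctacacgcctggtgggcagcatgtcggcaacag
The E-box begins at position 10 counted from the start of PNO1 and at position -5 in RRP9. Searched on both strands, CACGTG was present in 17 of 45 promoters of the ribosome biogenesis list (37.8%), 10.1% of the promoters of all tested genes and 7.43% of all 27305 promoters in the table. Among genes called lower in Resistant cells 11.4% held it, and among genes called higher 8.92%. The lysosome and autophagy list, mostly higher in Resistant cells, held it in 8 of 26 promoters (30.8%). HOX and positional factors, with no common direction, held it in 6 of 17 (35.3%). The mitochondrial ribosome list, mostly lower, held it in 4 of 49 (8.16%). Of the ribosome biogenesis members that held it, UTP14A and MRTO4 were called higher and the others lower. A match describes these letters in this window and does not show that MYC binds there.

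A list of 47 textbook MYC target genes leaned the same way, with 34 lower (72.3%), 6 higher (12.8%) and a median of -0.35. HK2, which traps glucose in the cell, was at 1539 ± 75.7 in Resistant cells and 4612 ± 171 in MYC T58A cells (log2 difference -1.58, SE 0.058, adjusted p = 8.29e-14). Its neighbouring genes on chromosome 2 had a median of -0.55. SLC19A1, the folate carrier, was lower (-1.26), at 746 in Resistant cells, against 1784 in MYC T58A cells. TERT, the catalytic subunit of telomerase, was at 50.4 in Resistant cells, against 252 in MYC T58A cells (log2 difference -2.30), in a stretch of chromosome 5 whose neighbouring genes had a median of -1.21. Of this list's promoters 13 of 42 held the E-box (31.0%). Among those members CDK4 was called higher, SRM, EIF4G1, IPO4 and HSPE1 were not called, and the others were called lower. The exception in size was CCND2, a G1 cyclin, which had 169, 166 and 156 in Resistant libraries, against 0, 0 and 0.881 in MYC T58A libraries. One MYC T58A library held the only read of that group, and the ratio of the means was 557, 95% counting interval 99.5 to 22031. GPAM, which starts triglyceride synthesis, was also higher, by 1.06.

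Structural proteins of the cytosolic ribosome did not follow the assembly factors. Of 77 cytosolic ribosomal protein genes, 32 were higher in Resistant cells (41.6%), 6 lower (7.79%) and 39 not called, and no member differed by 1 or more. The median was 0.18. RPS29 had 5401, 6218 and 5869 in Resistant libraries, against 3230, 2612 and 3958 in MYC T58A libraries (log2 difference 0.85, SE 0.216, adjusted p = 0.00398) and RPL11 was higher by 0.67. The local median was 0.35 around RPS29 and 0.65 around RPL11, which lies on chromosome 1. RPL37 was lower (-0.82), in a part of chromosome 5 with a local median of -0.66. RPS7 was lower (-0.48), and its call was lost in 5 of the 6 fits that left out 1 of these libraries. Ribosomal protein genes have many processed copies, so reads may be shared among them. In mitochondria the pattern was that of the assembly factors: of 56 mitochondrial ribosome genes 46 were lower (82.1%) and 5 higher, with a median of -0.48. MRPS2 was at 1465 in Resistant cells, against 3370 in MYC T58A cells (log2 difference -1.21). MRPL36 (-2.13) and MRPS30 (-2.04) differed more, and both lie on chromosome 5 with local medians of -1.14 and -0.61. MRPS24 was the largest exception, higher by 2.37.

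Respiratory chain genes were lower to a smaller extent, with 30 of 65 nuclear oxidative phosphorylation genes lower (46.2%), 9 higher and a median of -0.21. SDHA, the flavoprotein of complex II, was at 1119 in Resistant cells, against 3875 in MYC T58A cells (log2 difference -1.79), and here the neighbourhood on chromosome 5 had a median of -1.49. PPARGC1B, a coactivator of mitochondrial genes, was lower (-1.57) and its relative PPARGC1A higher by 2.12. Of 13 transcripts encoded in mitochondrial DNA, 4 were higher in Resistant cells (30.8%) and none lower by limma, and the other 9 were not called. The share higher was below the 37.0% of all tested genes. Of these calls, that of MT-ATP6 was lost in edgeR and under total-count scaling. It was also lost with the 6 libraries alone and without the libraries labelled Resistant-shMYC2. Several fits that left out 1 library lost it too, and some of these fits lost the call of MT-ND6. The summed level of the 13 transcripts ranged from 185348 to 255695 in Resistant and from 174157 to 219193 in MYC T58A libraries.

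Lipid synthesis was lower almost throughout the pathway. Of 32 sterol and fatty acid synthesis genes, 27 were lower in Resistant cells (84.4%) and 1 higher, with a median of -0.59. SCD, the desaturase that makes monounsaturated fatty acids, had 796, 805 and 774 in Resistant libraries, against 7165, 7188 and 7107 in MYC T58A libraries (log2 difference -3.17, SE 0.104, adjusted p = 9.93e-13). HMGCS1, an early enzyme of cholesterol synthesis, had 1551, 1504 and 1435 in Resistant libraries, against 5442, 5202 and 4602 in MYC T58A libraries (log2 difference -1.76, SE 0.0569, adjusted p = 1.42e-14). No library of either gene overlapped with the other group. HMGCS1 lies on chromosome 5 with a local median of -0.76, and the local median around SCD was 0.01. CYP51A1, which demethylates lanosterol, was lower (-1.73). The regulators moved with the enzymes: SREBF2, the master factor of sterol genes, was at 1039 ± 30.4 in Resistant cells and 2630 ± 46.2 in MYC T58A cells (log2 difference -1.34, SE 0.069, adjusted p = 8.97e-12), and SREBF1 was lower (-1.25). Only PMVK was called higher, by 0.56, on chromosome 1 with a local median of 0.40. Against Parental the list's median was -0.10 for Resistant and 0.44 for MYC T58A.

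Nucleotide and one-carbon genes were mixed. Of 25 genes of purine and pyrimidine synthesis 15 were lower (60.0%) and 5 higher, among them PFAS, an enzyme of the purine pathway, lower (-0.96), and DHODH, which makes orotate for pyrimidines, lower (-0.93). Among 14 genes of serine, glycine and folate metabolism 9 were lower and 4 higher. GLDC, which cleaves glycine, was at 25.4 ± 4.1 in Resistant cells and 332 ± 6.01 in MYC T58A cells (log2 difference -3.67, SE 0.16, adjusted p = 9.08e-13). PHGDH, the first enzyme of serine synthesis, went the other way, at 4726 ± 173 in Resistant cells and 1864 ± 2.92 in MYC T58A cells (log2 difference 1.34, SE 0.165, adjusted p = 7.13e-06), as did ALDH1L2, a mitochondrial folate enzyme, by 1.90. PHGDH lies on chromosome 1 with a local median of 0.65, and the local median around ALDH1L2 was 0.06. Glutamine and proline genes gave 7 lower and 4 higher of 15, and polyamine genes 4 lower and 2 higher of 11. ODC1, the first enzyme of polyamine synthesis, was lower (-0.55). Glycolysis genes stayed near the background, 12 higher and 7 lower of 25 with a median of 0.12. PFKFB4, which sets the level of a glycolytic activator, was higher by 2.36.

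Inflammatory genes had the highest median of the gene lists described here. Of 31 NF-kB cytokine and secretion genes, 29 were higher in Resistant cells (93.5%), 26 of them by at least 1, and the median log2 difference was 2.98. IL6, the cytokine that signals through STAT3, had 2484, 2460 and 2560 in Resistant libraries, against 20, 15.6 and 20.3 in MYC T58A libraries (log2 difference 7.0, SE 0.279, adjusted p = 4.12e-13). CCL2, a chemokine for monocytes, had 4058, 3875 and 4125 in Resistant libraries, against 47.1, 31.2 and 35.3 in MYC T58A libraries (log2 difference 6.71, SE 0.279, adjusted p = 7.14e-12). CSF2, a growth factor for myeloid cells, was at 658 ± 41.7 in Resistant cells and 8.73 ± 2.98 in MYC T58A cells (log2 difference 6.12, SE 0.227, adjusted p = 9.45e-14). The lowest Resistant library of each lay far above the highest MYC T58A library. Parental cells stood between, with 254 for IL6, 401 for CCL2 and 296 for CSF2. Genes for the pathway's own feedback, which NF-kB induces, followed, with NFKBIA higher by 2.19 and TNFAIP3 by 1.42. The factors themselves differed less, NFKB1 by 0.31, and RELA was not called (0.12). MMP1, a collagenase, was the only member called lower (-1.06). Against Parental the list's median was 1.23 for Resistant and -1.61 for MYC T58A.

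Interferon response genes were higher as well, 44 of 54 (81.5%) with 3 lower and a median of 0.83. GBP2, an interferon-induced GTPase, had 255, 244 and 238 in Resistant libraries, against 2, 1.04 and 0.881 in MYC T58A libraries, a ratio of means of 188, 95% counting interval 73 to 690.3. XAF1, a pro-apoptotic interferon target, had a mean of 37.0 in Resistant cells, no read in MYC T58A libraries and 28 reads in Parental libraries, and was at least 12.7-fold higher when 3 reads are assumed in each MYC T58A library. IFI44L, an antiviral effector, was at 508 ± 17.8 in Resistant cells and 26.1 ± 8.12 in MYC T58A cells (log2 difference 4.27, SE 0.185, adjusted p = 8.1e-13). Not every member was higher. The classical targets IFIT1, ISG15, MX2 and USP18 were not called. JAK2, a kinase of cytokine receptors, was lower (-0.59) and IFIT5 was also lower (-0.41). IRF7 had 0 reads in the Resistant libraries and 3 in the MYC T58A libraries.

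Antigen presentation genes were higher in 26 of 27 measured cases (96.3%), none was lower, and ERAP2 alone was not called (-0.02). The median was 1.48. HLA-B, a class I heavy chain, had 5230, 5037 and 5482 in Resistant libraries, against 288, 316 and 329.7 in MYC T58A libraries (log2 difference 4.07, SE 0.0697, adjusted p = 2.49e-18). HLA-F, a further class I gene, had 315, 324 and 331 in Resistant libraries, against 14, 13.5 and 7.93 in MYC T58A libraries (log2 difference 4.70, SE 0.185, adjusted p = 2.15e-13). B2M, the light chain of class I, was higher by 0.88. In class II, CIITA, the master activator of the class II genes, had 138, 127 and 156 in Resistant libraries, against 5.01, 6.23 and 11.5 in MYC T58A libraries (log2 difference 4.11, SE 0.197, adjusted p = 6.53e-12). The invariant chain CD74 was at 2633 ± 169 in Resistant cells and 178 ± 14.7 in MYC T58A cells (log2 difference 3.88, SE 0.201, adjusted p = 3.05e-09) and HLA-DRA was higher by 3.95. The class II genes were nonetheless lower in both groups than in Parental cells, where CIITA averaged 687 and CD74 8888, whereas HLA-B averaged 1845 there. HLA-DRB5, higher by 4.42 at 32.5 in Resistant cells, against 0.64 in MYC T58A cells, is nearly identical to HLA-DRB1, and reads may be split between them.

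Promoters of this pair of lists are shown for the interferon element, written GAAA, then any 2 bases, then GAAA, which interferon regulatory factors bind. HLA-F lies at chr6:29723184-29723483 and IFI44L at chr1:78620198-78620497, both on the plus strand of GRCh38.p14, and capitals mark the element on either strand.
HLA-F: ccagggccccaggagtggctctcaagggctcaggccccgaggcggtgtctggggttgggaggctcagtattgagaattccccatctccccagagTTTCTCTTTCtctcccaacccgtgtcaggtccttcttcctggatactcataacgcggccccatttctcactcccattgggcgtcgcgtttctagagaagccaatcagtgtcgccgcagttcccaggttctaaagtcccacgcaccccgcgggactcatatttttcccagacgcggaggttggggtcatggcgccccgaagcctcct
IFI44L: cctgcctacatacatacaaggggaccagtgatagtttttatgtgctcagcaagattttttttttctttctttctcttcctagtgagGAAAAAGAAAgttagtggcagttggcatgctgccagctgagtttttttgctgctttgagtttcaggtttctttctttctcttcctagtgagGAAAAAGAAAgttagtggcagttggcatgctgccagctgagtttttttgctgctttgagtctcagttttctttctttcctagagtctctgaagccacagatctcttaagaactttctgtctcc
In HLA-F the element begins at position -156 from the start, as its reverse complement, and in IFI44L copies begin at -164 and -73. This element was present in 21 of 39 promoters of the interferon list (53.8%), 8 of 21 of the antigen presentation list (38.1%), 2.84% of promoters of all tested genes and 3.65% of all promoters. Of the interferon genes that held it, IFIT5 and IFITM3 were lower, IFIT1, ISG15 and ISG20 were not called, and the others were higher. All antigen presentation genes that held it were higher, but so were 26 of 27 in that whole list. In the whole interferon list 81.5% were higher. For the AP-1 element TGANTCA, 3 of 23 promoters of the NF-kB list held it (13%), against 4.89% of those of all tested genes and 7.76% of all promoters. The interferon list was alike, with the AP-1 element in 5 of 39 promoters (12.8%).

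Genes that build the matrix and contract against it were higher in Resistant cells. Among 26 collagen chains 19 were higher (73.1%) and 6 lower, with a median of 1.66. COL5A1, a chain of the fibril-regulating type V collagen, had 15941, 16651 and 17418 in Resistant libraries, against 75.1, 81 and 71.4 in MYC T58A libraries (log2 difference 7.76, SE 0.0758, adjusted p = 1.35e-21), with a Parental mean of 4543. COL3A1 ran the other way at low levels, 4.21 in Resistant cells, against 39.6 in MYC T58A cells. Of 48 other matrix proteins and matrix enzymes 39 were higher (81.2%) and 7 lower, median 1.19. FN1, fibronectin, had 12643, 14158 and 14318 in Resistant libraries, against 206, 209 and 220.4 in MYC T58A libraries (log2 difference 6.01, SE 0.0514, adjusted p = 2.27e-22), and its Parental mean was 16564, so the low group was MYC T58A. TGFBI, a matrix protein induced by TGF-beta, was at 35728 ± 73.8 in Resistant cells and 581 ± 35.7 in MYC T58A cells (log2 difference 5.94, SE 0.0499, adjusted p = 2.27e-22). PLAT, a plasminogen activator, was lower (-1.48). The list medians against Parental were -0.32 for Resistant and -1.48 for MYC T58A in collagens, and 0.19 for Resistant and -0.69 for MYC T58A in the other matrix genes.

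Receptors for matrix were mostly higher in Resistant cells. Of 17 integrin genes 12 were higher (70.6%) and 4 lower. ITGB2, the leukocyte integrin beta chain, was at 225 in Resistant cells, against 6.95 in MYC T58A cells (log2 difference 4.96), and ITGB8, which helps release TGF-beta, was higher by 4.28. ITGA6, a laminin receptor chain, was lower (-1.56). ITGA2, a collagen receptor chain, was also lower (-1.44), on chromosome 5 with a local median of -0.50. Genes of TGF-beta and BMP signalling, which include ligands, receptors, antagonists and targets, went in both directions, 18 higher and 13 lower of 35. TGFB2 had 2946, 2860 and 2646 in Resistant libraries, against 27.1, 37.4 and 26.4 in MYC T58A libraries (log2 difference 6.51, SE 0.218, adjusted p = 2.41e-13), and INHBA, the activin A chain, was at 26781 ± 546 in Resistant cells and 1568 ± 42.2 in MYC T58A cells (log2 difference 4.09, SE 0.0405, adjusted p = 1.35e-21). NOG, an antagonist of BMPs, was at 11.5 in Resistant cells, against 227 in MYC T58A cells (log2 difference -4.19), and BMP5 was lower (-3.10). CDH11, a mesenchymal cadherin, was at 478 in Resistant cells, against 3 in MYC T58A cells (log2 difference 7.13), SNAI2, a mesenchymal transcription factor, was higher by 2.61, and CDH6 was lower (-4.33).

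Contractile and actin-binding genes were higher in 20 of 24 cases (83.3%) and lower in 2, with a median of 1.27. LCP1, a plastin that bundles actin, had 3394, 3057 and 2844 in Resistant libraries, against 13, 8.31 and 11.5 in MYC T58A libraries (log2 difference 8.04, SE 0.159, adjusted p = 1.91e-17). MYOCD, the coactivator that drives smooth muscle genes, was at 732 ± 80.7 in Resistant cells and 19 ± 5.14 in MYC T58A cells (log2 difference 5.22, SE 0.428, adjusted p = 1.19e-08). ACTG2, a smooth muscle actin, had no read in MYC T58A libraries and 4 reads in Parental libraries, and in Resistant cells it was at least 20.6-fold higher with 3 reads assumed in each MYC T58A library. TAGLN, another smooth muscle gene, was higher by 3.68. FLNC and DES, proteins of striated muscle, were lower (-2.61 and -2.43). YAP and TEAD targets gave 17 higher and 9 lower of 29. CYR61 was higher by 2.18, while ANKRD1 was lower (-1.56) and the factor TEAD4 was also lower (-1.48).

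Several direct readouts of ERK signalling were lower in Resistant cells. DUSP6, the phosphatase that ERK induces to limit itself, had 835, 838 and 898 in Resistant libraries, against 4813, 4991 and 5207 in MYC T58A libraries (log2 difference -2.54, SE 0.0493, adjusted p = 1.4e-17), and Parental cells averaged 4865. EGR1, an immediate early factor, had 25.6, 30.1 and 11.8 in Resistant libraries, against 769, 752 and 819 in MYC T58A libraries (log2 difference -5.15, SE 0.233, adjusted p = 1.01e-10). SPRY1, an inhibitor of receptor signalling, was at 41.6 ± 3.03 in Resistant cells and 755 ± 29.2 in MYC T58A cells (log2 difference -4.15, SE 0.392, adjusted p = 2.39e-07), and Parental cells averaged 61.8, so the high value was that of MYC T58A. None of these genes' libraries overlapped between the groups. Over the list of 36 MAPK output genes, 19 were lower (52.8%), 14 of them by at least 1, and 12 were higher (33.3%). BMF, a pro-apoptotic gene that ERK signalling represses, was at 552 ± 33.5 in Resistant cells and 15 ± 2.58 in MYC T58A cells (log2 difference 5.12, SE 0.188, adjusted p = 8.3e-14), and HMGA2, a chromatin protein, was higher by 2.61. Other ERK targets differed little, ETV5 by 0.17, CCND1 by 0.20 and FOSL1 by 0.25, and DUSP4 was not called (-0.16).

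RAS, RAF, MEK and ERK genes, with their adaptors and ERK-activated kinases, went in both directions, 10 higher and 13 lower of 29. BRAF was at 1305 ± 92.4 in Resistant cells and 1698 ± 96.7 in MYC T58A cells (log2 difference -0.38, SE 0.0572, adjusted p = 1.13e-05). NRAS was higher by 0.73, and its neighbours on chromosome 1 had a median of 0.67. Of the others, RPS6KA2, an ERK-activated kinase, was higher by 3.05, MRAS by 1.95, and HRAS was lower (-0.68).

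Receptor genes showed large differences in both directions. Among 36 receptor tyrosine kinases and ligands 19 were higher (52.8%) and 13 lower (36.1%). ROS1, an orphan-type receptor kinase that is oncogenic when fused, had 3578, 3919 and 3544 in Resistant libraries, against 44.1, 46.7 and 50.2 in MYC T58A libraries (log2 difference 6.26, SE 0.121, adjusted p = 1.34e-17), with a Parental mean of 81.1. AXL, a receptor often high in drug-tolerant melanoma, had 19540, 19917 and 19238 in Resistant libraries, against 12062, 11702 and 11137 in MYC T58A libraries (log2 difference 0.75, SE 0.226, adjusted p = 0.0112). EGFR was lower, at 2218 ± 141 in Resistant cells and 3303 ± 163 in MYC T58A cells (log2 difference -0.57, SE 0.0571, adjusted p = 6.67e-08). ERBB3, the neuregulin receptor, was higher by 2.26, at 99.4 in Resistant cells, against 20.2 in MYC T58A cells, although Parental cells averaged 1773. MERTK was lower at low levels, at 5.93 in Resistant cells, against 29.8 in MYC T58A cells. Ephrin receptors and ligands gave 10 higher and 4 lower of 17, led by EPHA3 with 676, 656 and 624 in Resistant libraries, against 1, 0 and 0.881 in MYC T58A libraries, a ratio of means of 1038, 95% counting interval 287 to 8579. EPHA3 averaged 2297 in Parental cells. EPHB4, a receptor for B-type ephrins, and the ligand EFNB1 were lower (-2.26 and -2.10). Among SRC family and adhesion kinases 12 of 18 were higher and 5 lower, with SRC at 1018 ± 17 in Resistant cells and 801 ± 30.2 in MYC T58A cells (log2 difference 0.35, SE 0.065, adjusted p = 0.000126), TLN2, a talin that links integrins to actin, higher by 2.43 and PXN, paxillin, lower (-1.03).

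Amino acid stress genes were mostly higher in Resistant cells, 26 of 39 ATF4 targets (66.7%) with 7 lower and a median of 0.57. When the median of the 51 genes around and including it was subtracted from each member, the list's median was 0.11. ATF4, which reads out amino acid shortage, was itself higher by 0.86. NUPR1, a stress-induced chromatin factor, had 985, 982 and 1082 in Resistant libraries, against 41.1, 43.6 and 45 in MYC T58A libraries (log2 difference 4.52, SE 0.174, adjusted p = 1.59e-13), with a Parental mean of 25.2. SLC6A9, a glycine transporter, was at 387 in Resistant cells, against 36.4 in MYC T58A cells (log2 difference 3.39). CHAC1, which degrades glutathione, had 248, 308 and 299.5 in Resistant libraries, against 90.2, 81 and 97 in MYC T58A libraries (log2 difference 1.66, SE 0.161, adjusted p = 4.91e-08). Other targets were lower, differed little or were not called. GDF15, a secreted stress cytokine, was lower, at 468 ± 92.5 in Resistant cells and 2462 ± 139 in MYC T58A cells (log2 difference -2.41, SE 0.134, adjusted p = 2.56e-11). ASNS, asparagine synthetase, differed by 0.17, and TRIB3, SLC7A11 and PSAT1 were not called. TARS was lower (-1.24), within a part of chromosome 5 with a local median of -0.98. Where genes on chromosomes 1, 5 and 18 and genes without a position are left out, 17 of 28 were higher and 5 lower.

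The promoter of CHAC1, at chr15:40953221-40953520 on the plus strand of GRCh38.p14, is given for the amino acid response element TGATGNAA, to which ATF4 binds. Capitals mark the element, here as its reverse complement.
CHAC1: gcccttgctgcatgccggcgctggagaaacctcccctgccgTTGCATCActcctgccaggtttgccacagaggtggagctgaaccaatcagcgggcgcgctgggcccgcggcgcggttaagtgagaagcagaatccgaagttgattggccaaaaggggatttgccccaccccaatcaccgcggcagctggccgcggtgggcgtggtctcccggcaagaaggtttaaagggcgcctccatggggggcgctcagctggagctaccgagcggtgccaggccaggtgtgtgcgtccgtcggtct
It begins at position -209 from the start. TGATGNAA was present in 9 of 31 promoters of the ATF4 list (29%), 1.84% of the promoters of all tested genes and 3.67% of all promoters. Of the list's members that held it, SLC3A2, NARS and TARS were lower, SLC7A1 was not called, and the others were higher. In the whole ATF4 list 66.7% were higher.

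Other programmes of stress and turnover varied. Chaperones were lower in 24 of 36 cases (66.7%) and higher in 8, with a median of -0.33. HSPA1A and HSPA1B, inducible heat shock proteins that are near-identical copies sharing reads, were lower (-1.30 and -1.38). HSPB8 and DNAJB4 were higher by 1.28 and 1.41, with local medians of -0.06 and 0.54. Hypoxia response genes were higher in 15 of 22 cases (68.2%), led by CA9, a carbonic anhydrase on the cell surface, at 757 ± 22.3 in Resistant cells and 38.5 ± 11.7 in MYC T58A cells (log2 difference 4.30, SE 0.149, adjusted p = 3.7e-14). Its Parental mean was 723. Of 41 lysosome and autophagy genes 29 were higher (70.7%) and 5 lower. CTSK, a collagen-degrading cathepsin, had 1559, 1448 and 1536 in Resistant libraries, against 5.01, 6.23 and 6.17 in MYC T58A libraries (log2 difference 7.80, SE 0.12, adjusted p = 7.57e-19), and CTSS, a cathepsin of antigen-presenting cells, was higher by 7.35. Proteasome genes were lower in 16 and higher in 6 of 31, all by less than 1.

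Cell division genes gave no common direction. Of 39 mitosis genes 16 were higher and 13 lower (median 0.01), and of 45 G1/S and replication genes 18 were higher and 14 lower (median -0.03). CDKN2C and CDKN1B, inhibitors of cyclin-dependent kinases, were higher by 1.59 and 1.00, with local medians of 0.65 and 0.22. MCM4, a subunit of the replicative helicase, was lower (-0.70). CENPF, a kinetochore protein, was higher by 1.03, on chromosome 1 with a local median of 0.68. CENPA, the centromeric histone, was lower (-1.21), on chromosome 2 with a local median of -0.44. Among p53 targets 8 of 23 were higher and 9 lower, with CDKN1A higher by 0.82 and FDXR lower (-1.41). Of 29 BCL2 family and death receptor genes 16 were higher and 7 lower. CASP1, the inflammatory caspase, was at 234 ± 34.3 in Resistant cells and 3.76 ± 2.16 in MYC T58A cells (log2 difference 5.71, SE 0.331, adjusted p = 4.43e-11), and HRK, a pro-apoptotic member, was lower (-1.80).

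Developmental genes split. WNT and NOTCH genes gave 12 higher and 14 lower of 35, with WNT5A, a ligand of the non-canonical pathway, at 9415 ± 423 in Resistant cells and 324 ± 11.7 in MYC T58A cells (log2 difference 4.86, SE 0.0563, adjusted p = 1.17e-20) and WNT10B lower (-2.43). HOX and positional factors gave 14 higher and 13 lower of 42, among them HOXC11 higher by 2.90 and PITX1 lower (-3.56). Of 14 neural crest and glial genes that passed the minimum value 10 were higher and 1 lower. NCAM1, a neural adhesion molecule, was at 494 in Resistant cells, against 13.9 in MYC T58A cells (log2 difference 5.06), and SOX5 was at 3203 ± 39.4 in Resistant cells and 202 ± 9.06 in MYC T58A cells (log2 difference 3.98, SE 0.0635, adjusted p = 1.22e-18). SOX9 was the member called lower (-0.19). Of the 22 in the table, 8 did not pass, TFAP2B with 0 reads in both groups and 588 in Parental libraries. A list of 13 mostly cancer-testis antigens gave 3 higher, 3 lower and 7 not called, shares below those of all tested genes. MAGEA1 had 67.2, 52.6 and 66.5 in Resistant libraries, against 2411, 2284 and 2337 in MYC T58A libraries (log2 difference -5.22, SE 0.0881, adjusted p = 2.19e-18) and MAGEB2 was lower (-6.15), whereas MAGED1, a MAGE gene that is broadly expressed and no cancer-testis antigen, was higher by 3.19. MAGEA genes resemble each other closely, so their reads may be split.

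**Figure D3:**
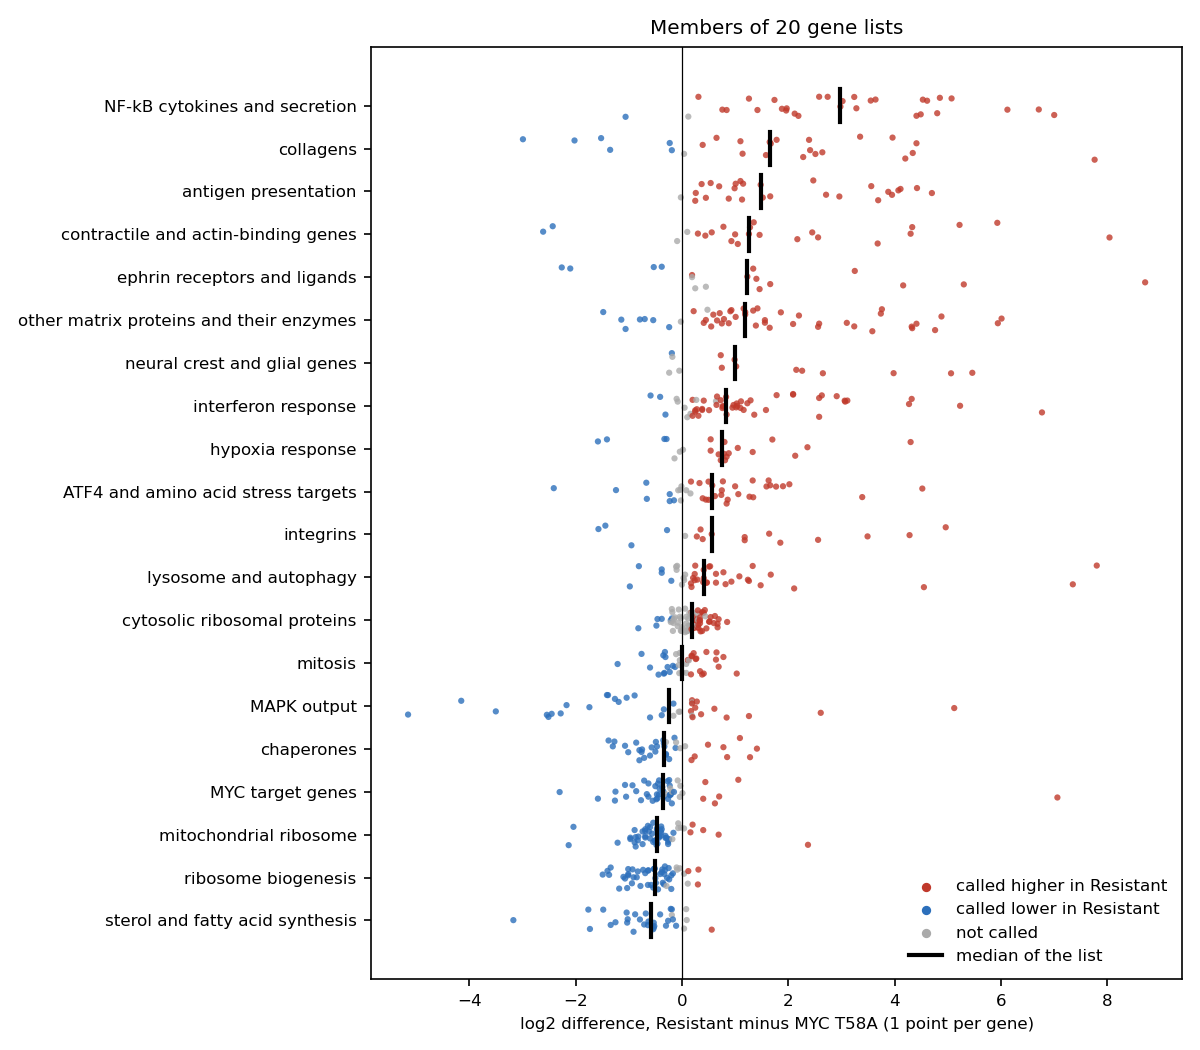
Log2 difference (Resistant minus MYC T58A, horizontal) of each tested member of 20 gene lists, 1 point per gene coloured by call, with a black line at the list's median. Medians run from 2.98 in NF-kB cytokines to -0.59 in sterol and fatty acid synthesis, and the points of most lists spread to both sides of 0.

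Markers of cell types other than melanoma cells went in both directions. Of 20 melanocyte genes tested 10 were higher and 6 lower, and the summed level of the 23 in the table was 17493 to 18150 in Resistant, 11664 to 12473 in MYC T58A and 14556 to 14648 in Parental libraries. Fibroblast markers summed to 6255 to 6492 in Resistant, 1484 to 1526 in MYC T58A and 4138 to 4335 in Parental libraries, with 7 of 12 higher and 5 lower. FAP, a surface protease of activated fibroblasts, was higher by 5.24 and DCN, decorin, by 4.33, whereas THY1 was lower (-2.59) and PDPN had a mean of 0.313 in Resistant and 0 in MYC T58A cells. Of 15 immune cell markers 3 were in the table. Their sum was 327 to 359 in Resistant, 30.1 to 48.5 in MYC T58A and 249 to 289 in Parental libraries, most of it from CSF1R, the macrophage growth factor receptor, at 273 in Resistant cells, against 18.2 in MYC T58A cells. Keratinocyte and epithelial markers summed to 11445 to 11821 in Resistant, 18593 to 20159 in MYC T58A and 13733 to 13923 in Parental libraries. KRT18, a simple epithelial keratin, was lower (-1.38) and DSP, a desmosome protein, higher by 3.64. Endothelial markers summed to 115 to 133 in Resistant, 92.2 to 96.1 in MYC T58A and 376 to 420 in Parental libraries. Whether cells of another type contributed to the matrix or inflammatory lists was not tested.

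The largest single differences were between genes read strongly in one group and scarcely in the other. KIAA1462, a junctional cadherin-associated protein, had 1704, 1727 and 1700 in Resistant libraries, against 1, 4.16 and 0 in MYC T58A libraries, a ratio of means of 995, 95% counting interval 426 to 3066. C3, the central complement component, had 12861, 12079 and 12395 in Resistant libraries, against 39.1, 35.3 and 26.4 in MYC T58A libraries (log2 difference 8.51, SE 0.19, adjusted p = 1.37e-13). NLRP2, an inflammasome-related gene, MSC, a basic helix-loop-helix repressor, and ZNF716 had 1 or 2 reads in all MYC T58A libraries together, against Resistant means of 635 for NLRP2, 724.5 for MSC and 541 for ZNF716. LCN2, an iron-binding lipocalin induced in inflammation, had 314, 296 and 344 in Resistant libraries, against 0, 0 and 0 in MYC T58A libraries. It was at least 109-fold higher when 3 reads are assumed in each MYC T58A library, as were ALS2CR11 (107-fold), COX7B2 (85.9-fold), GABRA2 (85-fold), GALNT5 (77.4-fold) and FUT9 (51-fold). In all, 77 tested genes had no read in any MYC T58A library and 12 had none in any Resistant library.

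In the other direction, TMPRSS15, the intestinal enteropeptidase, had 54.4, 37.6 and 39.1 in Resistant libraries, against 7134, 7431 and 6628 in MYC T58A libraries (log2 difference -7.32, SE 0.24, adjusted p = 4.84e-11), and its Parental mean was 5822. TRIB2, a pseudokinase, likewise had 9.61, 10.3 and 10 in Resistant libraries, against 1001, 964 and 964 in MYC T58A libraries (log2 difference -6.47, SE 0.0685, adjusted p = 2.86e-21), with a Parental mean of 1339. TNNT2, cardiac troponin T, had 0, 0 and 0 in Resistant libraries, against 125, 129.8 and 96.1 in MYC T58A libraries, at least 40.1-fold lower in Resistant cells by the same floor of 3 reads. EGFLAM, an extracellular matrix protein, was at 0.669 in Resistant cells, against 406 in MYC T58A cells, VAT1L at 0.973 in Resistant cells, against 210 in MYC T58A cells and CALB1, a calcium buffer, at 0.617 in Resistant cells, against 136 in MYC T58A cells.

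Differences were uneven along the genome. Positions by chromosome were found for 14039 of the 15742 genes in a GENCODE annotation, which was used for gene order alone. On chromosome 1 the median log2 difference of 1412 genes was 0.58, and 72.5% were higher and 9.42% lower in Resistant cells. Chromosome 5 had a median of -0.48 over 679 genes, with 17.7% higher and 64.4% lower. Chromosome 18 had a median of -0.51 over 211 genes, with 17.5% higher and 63.5% lower. Medians of the other nuclear chromosomes lay between -0.15 (chromosome 2) and 0.14 (chromosome 6). Set against Parental, chromosome 5 had a median of -0.49 in Resistant and -0.01 in MYC T58A, while chromosome 1 had 0.10 in Resistant and -0.44 in MYC T58A and chromosome 18 had 0.08 in Resistant and 0.59 in MYC T58A. Chromosome 20 was lower than Parental in both, with medians of -0.35 in Resistant and -0.38 in MYC T58A, so it did not stand out between them (median 0.01). Copy number was not measured, and its part in these differences was not tested.

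The main lists kept their direction with chromosomes 1, 5 and 18 left out. That step does not remove local shifts on other chromosomes. Local medians still ran from -0.71 to 0.35 on chromosome 2 and from -0.37 to 0.84 on chromosome 12. Outside chromosomes 1, 5 and 18, 11737 placed genes had a median of -0.01, with 35.4% higher and 35.2% lower. There, 39 of 44 ribosome biogenesis genes were lower and 1 higher, 23 of 25 sterol and fatty acid genes were lower and 0 higher (limma), 26 of 28 NF-kB genes were higher, 23 of 23 antigen presentation genes were higher and 34 of 43 interferon genes were higher. The list of YAP and TEAD targets had a median of 0.10 there, against 0.37 with those chromosomes included, and melanocyte genes 0.06, against 0.49.

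**Figure D4:**
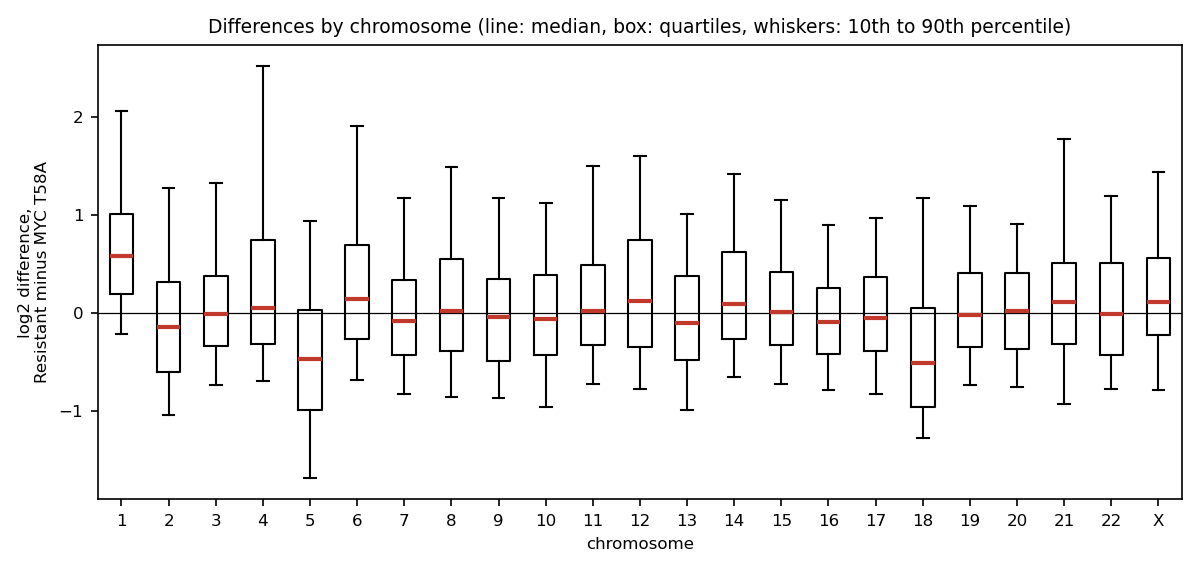
Log2 differences (Resistant minus MYC T58A) of tested genes by chromosome, with a line at the median, a box over the quartiles and whiskers from the 10th to the 90th percentile. The median is 0.58 on chromosome 1, -0.48 on chromosome 5 and -0.51 on chromosome 18, and within 0.15 of 0 on the others.

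A smaller part of the transcriptome was alike. For 5072 genes (32.2%) the 95% interval of the log2 difference lay inside -0.5 to 0.5, and 2499 of these were nonetheless called, with small differences. Among 4649 genes not called, the interval of 2076 reached past 0.5 in 1 direction or the other, so these libraries leave a difference of that size possible. MITF belonged to the alike genes, with an interval of -0.11 to 0.23, and so did DUSP4, a further ERK-induced phosphatase, with an interval of -0.39 to 0.07.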

How the data were processed

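RNA-seq of A375 cells was prepared, per the labels' protocols, with a Qiagen RNeasy extraction and a stranded mRNA kit from Kapa. Trim Galore and cutadapt, STAR, HTSeq and DESeq2 appear in the submitters' processing notes. Build, annotation and strand setting were not given in the sources used here. Deposited signal values per gene symbol were found to be read counts divided by a size factor, since 100% of them came out as whole multiples of 1 step per library within 0.01. Every gene in the table reaches 10 reads in some library. All columns belong to samples of the series (0 others), and libraries are numbered in column order.

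Values were taken as log2(value + 1) and fitted in limma 3.58.1 (trend and robust, R 4.3.3) over all 15 libraries with 1 mean per group, and the contrast was Resistant minus MYC T58A. P-values were adjusted by Benjamini-Hochberg over the 15742 genes that reached 10 in 3 of the 6 libraries, and called under 0.05. On the recovered reads, edgeR 4.0.16 (quasi-likelihood) called 11495 genes and DESeq2 1.42.0 called 11103. A fold against a group with no read is a bound from 3 reads in each library, and for groups averaging under 3 reads the ratio of means has an exact 95% Poisson interval, which covers counting alone. The limma fit was also run on simulated data in which far fewer genes differed than were called here. That run therefore does not check the shares of genes called.

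Members and gene lists were chosen with earlier results of these data known. Named genes are MYC, SOX10, MITF, DUSP6, BRAF, NRAS, EGFR, AXL and SRC, the 12 largest called differences in each direction with a mean of at least 100 and no overlap, the 6 highest genes read in 1 group of the pair alone, and per list up to 3 called members in the main direction and 2 in the other, with founding members of a pathway. Others, such as HLA-B, CD74, IFI44L, CHAC1, NFKBIA, TAGLN and ATF4, were named after their values were seen. Uncharacterised transcripts and a few other genes of the rule are not reported here. Promoters came from RefSeq (GRCh38.p14) and matched 11076 of the tested genes.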

Additional observations from a re-analysis of the deposited data

How the results depend on the processing

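None of the 244 genes followed, those of the naming rule other than MYC that could be tested, changed direction under any alternative fit. Other genes named in the text were not followed. Under quantile normalization the balance of all calls turned, with 5236 higher and 6261 lower, 45.5% higher in place of 52.5%. Requiring a difference beyond 0.5 left 4716 calls, with 2856 higher and 1860 lower in Resistant cells. The other alternatives gave 9702 (adjusted p under 0.01) to 11948 calls (no filter), and the difference of MYC stayed between -3.70 and -3.47. Leaving out each library in turn gave 10499 to 10678 calls, 5578 to 5644 higher and 4908 to 5065 lower. By at least 1, these fits gave 2305 to 2338 higher and 1262 to 1343 lower, with 4738 to 4869 genes alike in both groups and MYC at -3.60 to -3.47. Quantile normalization moved the median of all genes to -0.08, from 0.02, and none of the 39 lists followed, those with a median of at least 0.1 in either direction, changed the sign of its median under it, under total-count scaling, or in edgeR or DESeq2. Among lists with smaller medians, 3 changed sign without chromosomes 1, 5 and 18: WNT and NOTCH to -0.14 from 0.05, MYC and its partners to -0.11 from 0.05, and polyamine metabolism to 0.03 from -0.04. Of the 244 genes followed, 39 lost their call under some alternative, among them MXD1 under quantile normalization (0.16, adjusted p = 0.0681 by limma). Fits with Resistant, MYC T58A and Parental libraries alone, and lists without chromosomes 1, 5 and 18, were added after seeing the data. No paired analysis was possible because the table's columns carry no replicate numbers of the labels. Genes with few reads limit what these libraries can show, and 2580 genes were too low to test.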

Other observations

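Clustered protocadherins, neuronal adhesion genes that sit in tandem on chromosome 5, were picked out after their values were seen. Of 43 tested, 27 were lower and 2 higher in Resistant cells, 23 of the lower by at least 1, with a median log2 difference of -1.07. PCDHB13 had 5.34, 2.82 and 7.28 in Resistant libraries, against 129, 129 and 128 in MYC T58A libraries (log2 difference -4.47, SE 0.43, adjusted p = 1.13e-07, limma). PCDHB12 had 13.9, 5.64 and 10 in Resistant libraries, against 152, 174 and 173 in MYC T58A libraries (log2 difference -4.02, SE 0.294, adjusted p = 1.1e-09, limma). Neither gene's libraries overlapped. The share lower was close to that of the rest of chromosome 5, where 410 of 636 other genes were lower, 144 of them by at least 1. The medians of 51 neighbouring genes around the family, which include its own members, ran from -1.13 to -0.70, and those other genes of chromosome 5 had a median of -0.45. Against Parental, whose libraries serve both comparisons, the family's median was -0.63 in Resistant and 0.54 in MYC T58A. Neighbouring members are alike in sequence and some share exons, so reads may be split among them. The family was taken by symbol (PCDHA, PCDHB, PCDHGA, PCDHGB or PCDHGC with a number), so PCDHAC genes of the clusters were not counted in it. Of the 12 other protocadherins tested 4 were higher and 5 lower, with a median of -0.41.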
